A study of Mus musculus with 25 samples.

Results

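The genes described are 225 mouse zinc finger protein genes, taken as every symbol made of Zfp and digits that the submitters assigned to a 10 kb bin in either of their 2 TKO interaction lists, with Zfp42 left out. They are 1.77% of the 12695 genes named in those lists and occupy 219 of 10485 gene bins, of which 173 hold zinc finger genes alone and 46 also hold another gene. An interaction is a pair of 10 kb bins of 1 chromosome listed by the submitters for a group of libraries, and it touches a gene when either bin is assigned to that gene. Because gene names were taken from the TKO lists, a gene with no contact there could not be counted, and the background genes follow the same rule. A gene with contacts in fibroblasts but in neither TKO list is therefore missing. The RefSeq gene (GRCm38.p6) overlaps its assigned bin for 220 of the 225 genes. For Zfp36, Zfp473, Zfp617, Zfp652 and Zfp866 it lies outside the bin, and contacts given under these names are contacts of the assigned bin.

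The data comprise 25 libraries in 9 groups, from HiChIP, which ligates neighbouring DNA ends in fixed nuclei and precipitates them with an antibody, and from Hi-C, which omits the antibody. The histone mark H3K27ac, found at promoters and enhancers in use, was precipitated from passage 3 MEF (2 libraries), from V6.5 ES cells grown in 2i medium (2 libraries), and from V6.5 TKO cells in 2i before (3 libraries) and after 24 h of doxycycline (3 libraries). The meaning of TKO is not given in the labels. KLF4, one of the reprogramming factors, was precipitated at day 3 (3 libraries, bulk cells) and day 6 (4 libraries, cells sorted for SSEA1) of doxycycline with ascorbic acid, and from V6.5 ES cells (4 libraries). Hi-C was made from MEF and ES cells (2 libraries each). The fibroblasts came from E13.5 embryos heterozygous for an Oct4-GFP reporter, the OKSM cassette at Col1a1 and rtTA at Rosa26, so the MEF group carries the same alleles as the day 3 and day 6 cells. The labels do not say that replicates came from separate cultures or embryos, so p-values measure the spread between these libraries, which may be technical.

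Zinc finger proteins of this family bind DNA through tandem C2H2 fingers, and many of the mouse genes lie in tandem arrays that grew by duplication. Many carry a KRAB domain, which recruits the corepressor TRIM28 and, with it, the H3K9 methyltransferase SETDB1 and HP1 proteins to retroelements and imprinted regions. A smaller number, such as Zfp281 and Zfp143, act on promoters of the pluripotency network, and Zfp36 (tristetraprolin) binds RNA rather than DNA and speeds mRNA decay.

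Contact totals of the HiChIP libraries were 48.7 to 180.6 M contacts per library, as recovered from the deposited values, and the median count of an interaction touching a zinc finger gene was between 12 and 50. The cell labels were compared with marker genes. All 5 ES markers found (Nanog, Sall4, Mycn, Dppa5a and Klf2) had more H3K27ac interactions in ES than in MEF, 96 against 2 in sum, and 4 of 5 fibroblast markers (Thy1, Col1a1, Vim and Pdgfrb) had fewer. The fifth, Fn1, had 1 in MEF and 5 in ES. For other cells a fibroblast culture could hold, the MEF and ES numbers were 0 and 6 for Cd68, 1 and 2 for Pecam1 and 3 and 2 for Krt8. Cdh5, Ptprc and Epcam were not found. A gene without a contact in a TKO list could not appear, so these numbers do not measure the purity of the cultures. Each group has 1 list, so numbers of listed interactions have no replicate, and values per library exist only for the strength of listed interactions.

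The family was concentrated on a few chromosomes. Chromosome 7 held 70 of the 225 genes, chromosome 17 held 28, chromosome 13 held 21 and chromosome 8 held 15, and the remaining genes were spread over 16 other chromosomes. Joining neighbouring bins less than 1 Mb apart gave 19 clusters of 3 to 15 genes, which together held 126 genes (56% of the family), and 99 genes lay outside them. The largest cluster, numbered 7, had 15 genes from Zfp84 to Zfp146 within 410 kb (chr7:29760001-30170000, mm10), among them Zfp568, a KRAB gene known for silencing a placental Igf2 transcript. Cluster 14 had 13 genes from Zfp712 to Zfp273 (chr13:67060001-67820000), cluster 17 had 12 genes from Zfp160 to Zfp13 (chr17:21000001-23600000), and cluster 18 had 10 genes from Zfp871 to Zfp414 (chr17:32780001-33630000).

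Zinc finger genes touched 290 of 60870 interactions in the MEF H3K27ac list (0.476%, 95% Wilson interval 0.425 to 0.534) and 837 of 75466 in the ES list (1.11%, 1.04 to 1.19). Intervals of this kind cover counting error only, since ligation products amplified by PCR are not independent molecules. In TKO cells the numbers were 1006 of 93248 at 0 h (1.08%) and 829 of 84256 at 24 h (0.984%). KLF4 interactions touching the family were 171 of 23720 at day 3 (0.721%), 24 of 4047 at day 6 (0.593%) and 262 of 24589 in ES (1.07%). Hi-C gave 465 of 228083 in MEF (0.204%) and 1049 of 318622 in ES (0.329%). Taken as a share of interactions that touch any named gene, the family made up between 1.37% (MEF Hi-C) and 2.44% (TKO at 0 h), around its 1.77% share of the genes. For H3K27ac, interactions touching any named gene were 16566 of 60870 in MEF and 36884 of 75466 in ES. The family made up 1.75% of the former and 2.27% of the latter.

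Contacts of zinc finger genes were short. The median distance between bin starts was 30 kb in ES, 20 kb in MEF and 10 kb for KLF4 at day 6, against 30, 20 and 20 kb for interactions of all named genes. Contacts of 100 kb or more were 6.81% of the family's interactions in ES (9.83% for named genes), 4.48% in MEF (8.03%) and 0.585% for KLF4 at day 3 (7.44%). The longest H3K27ac contact spanned 320 kb in MEF, between the bin of Zfp91 and Lpxn and a bin without a named gene (4.49 and 5.53 CPM in the 2 libraries). In ES it spanned 290 kb from Zfp219, at 4.11 and 3.10 CPM. CPM is the count scaled to a fixed total of contacts of the same chromosome, and listed H3K27ac interactions lie above 3 CPM.

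The share of genes with any listed interaction was close to the background in most lists. It was 54.7% of the family in MEF (57.7% of named genes), 83.6% in ES (81.1%), 96.4% in TKO at 0 h (94.1%), 40% for KLF4 at day 3 (40.1%) and 52.4% for KLF4 in ES (57.4%). In Hi-C it was lower than the background, 61.8% in MEF (78.1%) and 78.2% in ES (89.6%), and 43 zinc finger genes (19.1%) appeared in neither Hi-C list, against 7.64% of named genes. The genes present in all 9 lists were 14 in number: Zfp13, Zfp36, Zfp90, Zfp184, Zfp213, Zfp219, Zfp382, Zfp511, Zfp541, Zfp592, Zfp688, Zfp704, Zfp784 and Zfp865.

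From MEF to ES, 164 of the 225 genes (72.9%) had more listed H3K27ac interactions, 45 had the same number and 16 (7.11%) had fewer. Among named genes, 65.4% had more and 14.7% fewer. The median change was 1.00 on the log2(number + 1) scale in the family and 1.00 in the background. The summed number over genes was 319 in MEF and 919 in ES, and 73 genes went from no listed interaction to at least 1, while 8 did the reverse. Measured against the median gene of the same chromosome, 45.3% of the family lay above and 41.8% below (42.7% above among named genes).

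**Figure D1:**
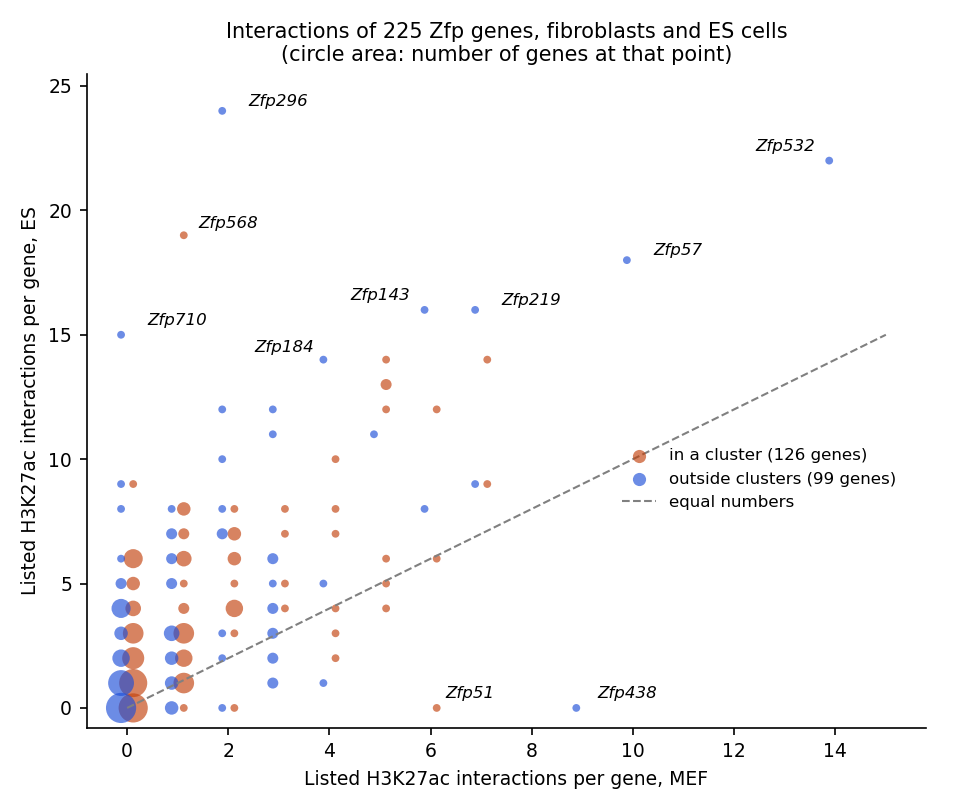
Number of listed H3K27ac interactions of each of the 225 zinc finger genes in MEF (horizontal) and ES (vertical), with circle area showing how many genes share a point, colour showing cluster membership and the dashed line marking equal numbers. Zfp296 stands at 2 and 24, Zfp568 at 1 and 19, and Zfp438 at 9 and 0.

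The largest gains included several genes tied to ES cell regulation. Zfp296, an ES cell factor that aids reprogramming, had 2 listed interactions in MEF and 24 in ES, the most of the family in ES. Its MEF contacts reached 10 kb to the lower and 30 kb to the higher coordinate side, while the ES contacts ran 170 kb to each side, with 13 partners lower and 11 higher. Zfp296 shares its bin with Gemin7, so its contacts cannot be told apart from those of that gene. Zfp568 had 1 and 19 interactions, and Zfp710 had 0 and 15. Zfp706, which promotes exit from the ES cell ground state, had 2 and 12, Zfp184 had 4 and 14, and Zfp143 had 6 and 16. Other genes with many ES interactions were Zfp532 (14 in MEF and 22 in ES), Zfp57 (10 and 18) and Zfp219 (7 and 16).

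Among the genes that could be counted, fewer had losses than gains. A gene with contacts in MEF but in neither TKO list could not enter. The TKO 0 h list held 82.8% of the family's ES interactions, so the rule favours genes with ES contacts. How rare losses are in the whole family therefore cannot be read from these numbers. Zfp438 had 9 interactions in MEF and 0 in ES, Zfp51 had 6 and 0, and Zfp105 had 4 and 1. Zfp948 had 4 and 2, and Zfp286 and Zfp54 each had 2 and 0. Zfp51, Zfp54 and Zfp948 are neighbours in cluster 17, where 8 of 12 genes had more interactions in ES and 3 had fewer.

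By role, all 7 pluripotency-linked genes found (Zfp143, Zfp207, Zfp217, Zfp219, Zfp281, Zfp296 and Zfp706) had more H3K27ac interactions in ES, 89 against 21 in sum. Zfp281, a regulator of Nanog, had 1 and 7, and Zfp217 had 1 and 7. Of 5 KRAB genes with known targets, 4 had more and 1 was equal, 48 against 13 in sum. Among them Zfp57, which keeps DNA methylation at imprinted regions, had 10 and 18, Zfp809, which silences retroviruses, had 1 and 3, Zfp819 had 1 and 8, and Zfp708 had 0 in both. Of the mesenchymal and RNA-decay list 1 of 6 genes was found, Zfp36, with 7 and 9. The shares for all named genes were 65.4% with more and 14.7% with fewer. These lists were drawn up with earlier results of these data known, and their counts are a description.

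The corepressor genes that KRAB proteins work through were examined beside the family. Of 19 such genes, 17 had more H3K27ac interactions in ES, 1 was equal and 1 had fewer, 152 against 36 in sum, with a median change of 1.74 on the log2(number + 1) scale. Among named genes 65.4% had more and 14.7% fewer, with a median change of 1.00. Trim28 had 3 in MEF and 5 in ES, and Setdb1 had 1 and 2. Larger numbers were found at Atrx (6 and 17), a chromatin remodeller, and at Daxx (1 and 12), its histone chaperone partner. Dnmt1, the maintenance DNA methyltransferase, had 3 and 12, and Ehmt1 was the exception with 1 and 0.

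Genes in clusters and genes outside them mostly had more interactions in ES. In clusters 76.2% of genes had more interactions in ES and 4.76% fewer, and outside clusters 68.7% and 10.1%. Cluster 7 went from 18 to 64 interactions, with 11 of its 15 genes higher in number and none lower. Cluster 14 went from 1 to 31, and 11 of its 13 genes had more, 9 of them from none at all in MEF. Clusters 17, 9 and 2 went from 24 to 42, from 15 to 28 and from 4 to 22. On chromosome 2 all 7 zinc finger genes had more interactions in ES (44 against 6 in sum), while on chromosome X 25.0% had more and 25.0% fewer, against 77.0% more among all named genes of that chromosome. The family has few genes on chromosome X, among them Zfp92, Zfp182, Zfp185 and Zfp300, so its percentages there rest on very few genes.

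**Figure D2:**
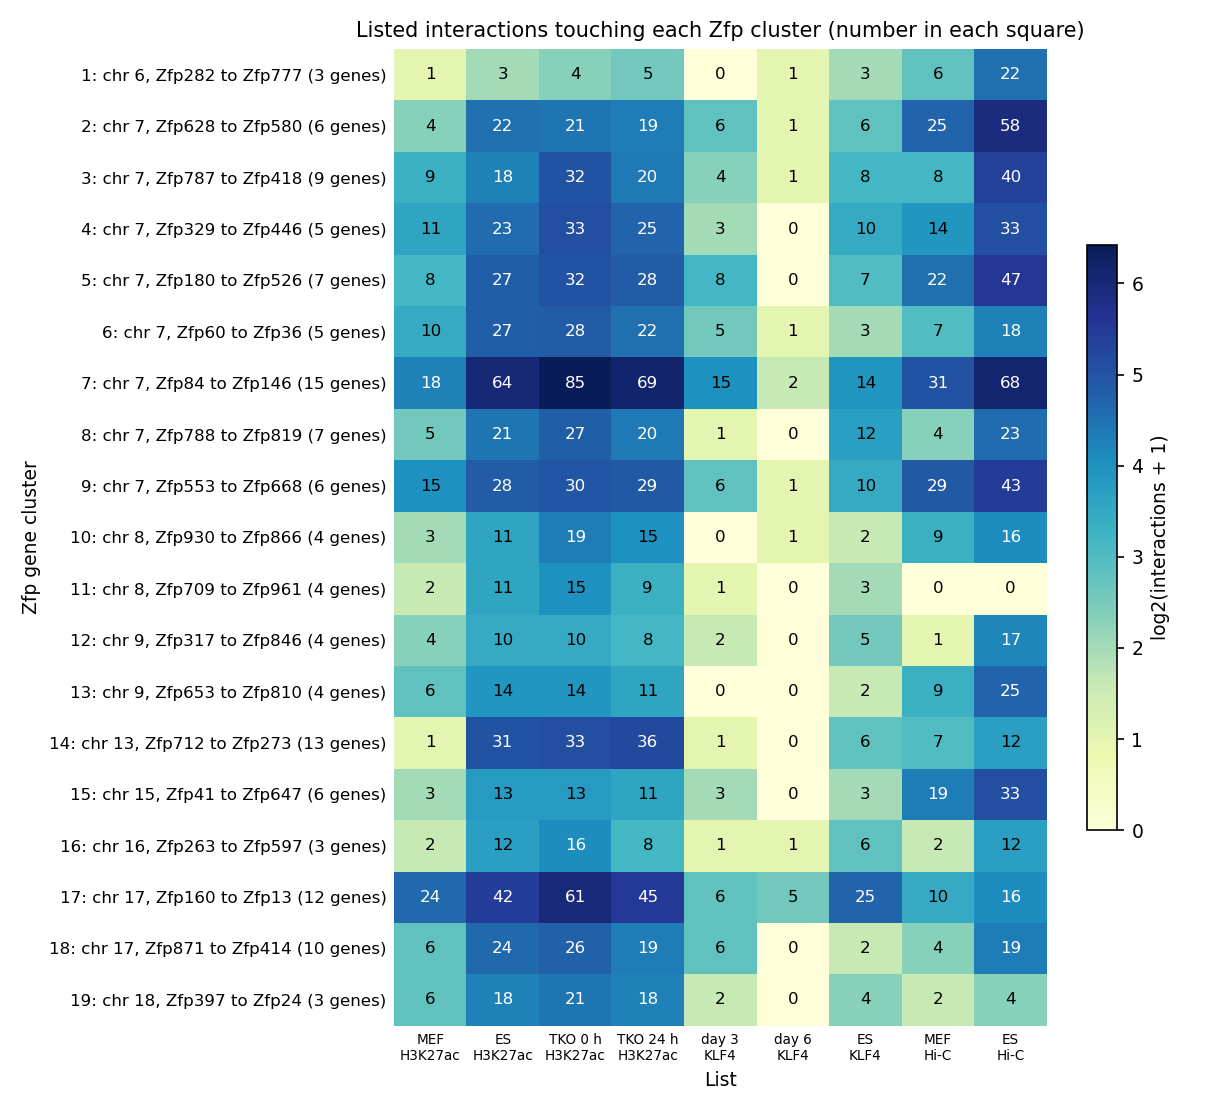
Number of listed interactions touching each of the 19 clusters (rows, named by their first and last gene) in each of the 9 lists (columns), with colour on a log2(number + 1) scale. Cluster 14 holds 1 interaction in the MEF H3K27ac list and 31 in the ES list, and cluster 11 holds 0 in both Hi-C lists.

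Within clusters, zinc finger genes also contacted each other. Interactions with a zinc finger gene at both ends numbered 21 in MEF, 48 in ES, 60 and 43 in TKO at 0 and 24 h, 15, 1 and 18 in the KLF4 lists of day 3, day 6 and ES, and 17 and 33 in Hi-C. None spanned more than 140 kb. Nearly all joined genes of 1 cluster, for example 46 of 48 in ES and 58 of 60 in TKO at 0 h. Clusters join bins up to 1 Mb apart, so this follows from their definition wherever 3 or more genes are joined. The pair Zfp865 and Zfp784, in adjacent bins of cluster 2, was listed in all 9 lists. In 8 of 9 lists were 4 other pairs: Zfp524 with Zfp784, Zfp688 with Zfp689, Zfp324 with Zfp446, and Zfp553 with Zfp771. All 5 pairs lie on chromosome 7.

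The Zfp865 and Zfp784 contact measured 4.48 and 5.95 CPM in MEF H3K27ac, 7.18 and 7.55 in ES, and 9.74, 11.5 and 11.4 in TKO at 0 h. At 24 h it measured 8.09, 11.4 and 10.5 CPM. With KLF4 it was 5.62, 6.63 and 4.95 CPM at day 3, 3.06, 3.95, 5.50 and 3.64 at day 6, and 6.66, 6.85, 5.51 and 6.73 in ES. MEF and ES ranges did not overlap for H3K27ac, and the day 6 range overlapped that of day 3. The edgeR test described below called this contact in no comparison, that of MEF and ES H3K27ac included.

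Strength was tested on raw counts of interactions listed in both groups of a comparison, with edgeR's quasi-likelihood test over the whole table and Benjamini-Hochberg adjustment, called at an adjusted p below 0.05. Since an interaction absent from a list may have any value below its cutoff, list-only contacts have no test. For H3K27ac in MEF and ES, 224 interactions of 106 zinc finger genes could be tested, 77.2% of the family's MEF interactions and 26.8% of its ES interactions. Of these, 64 (28.6%) rose and 8 (3.57%) fell in ES, against 17.6% rising and 14.4% falling among the 17901 interactions tested (32% called in all). The median log2 change was 0.24 in the family and -0.04 overall. Among the 10271 tested interactions that touch any named gene, 19.2% rose and 11.3% fell, with a median of 0.02. With contact totals alone as the scale, the overall median moved from -0.04 to 0.21 and the family's calls to 101 higher and 4 lower. Without MEF replicate 2 the family's calls fell to 47 (21.0%, against 18.6% of all interactions), and DESeq2 made 34 (15.2%, against 13.7%).

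Calls were made at 35 genes, 30 with rises alone, 3 with falls alone and 2 with both. Zfp57 had 9 rises of 10 tested interactions, Zfp213 5 of 6, Zfp219 4 of 7 with 1 fall, Zfp553 3 of 3, Zfp13 3 of 5, and Zfp446 3 of 7. Both tested interactions of Zfp296, of Zfp207 and of Zfp229 rose. Zfp532 had 6 rises and 4 falls among 13. By place, chromosome 17 had 18 rises and 1 fall among 33 tested and chromosome 7 had 20 rises and no fall among 81. The chromosome 17 rises all lay at Zfp57, Zfp213, Zfp13 and Zfp229, and contacts of 1 gene share a bin. Over all tested interactions of the genome 17.6% rose and 14.4% fell, and no such share was computed for single chromosomes.

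The contact of Zfp57 with a bin 30 kb lower (chr17:36970001-36980000) measured 3.90 and 4.98 CPM in MEF and 45.5 and 44.1 in ES. It rose by 3.16 on the log2 scale (SE 0.21, edgeR adjusted p = 6.66e-18). In TKO cells it measured 41.0, 46.7 and 46.5 CPM at 0 h. In Hi-C it was listed in ES (signal 33.8 and 39.1) and not in MEF. A second contact of the Zfp57 bin, with the bin of Mog, a myelin gene, measured 12.9 and 10.5 CPM in MEF and 42.7 and 34.9 in ES, a rise of 1.62 (SE 0.18, edgeR adjusted p = 1.7e-10). Hi-C listed that contact in MEF (signal 40.3 and 50.4) and not in ES.

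Zfp553, the first gene of cluster 9, shares its bin (chr7:127230001-127240000) with Sept1. Its contact with the adjacent lower bin measured 6.32 and 4.83 CPM in MEF and 39.4 and 37.4 in ES, a log2 rise of 2.71 (SE 0.17, edgeR adjusted p = 2.6e-18). The same contact had Hi-C signals of 60.6 and 39.2 in MEF and 51.0 and 51.0 in ES, ranges that overlap. A contact with the bin 20 kb lower measured 5.27 and 5.20 CPM against 30.9 and 29.9, a rise of 2.43 (SE 0.18, edgeR adjusted p = 4.84e-16), and its Hi-C signal was 53.4 and 64.4 in MEF and 38.9 and 57.3 in ES. In bulk HiChIP, more H3K27ac on the bins, a closer contact and more cells that hold it cannot be told apart.

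Zfp532, whose human counterpart binds ZMYND8, moved both ways (bin chr18:65580001-65590000). The contact with the adjacent higher bin measured 11.1 and 13.0 CPM in MEF and 40.5 and 47.8 in ES, a rise of 1.53 (SE 0.16, edgeR adjusted p = 5.7e-11). Contacts with more distant bins were stronger in MEF. That with a bin 160 kb higher measured 8.25 and 9.44 CPM against 3.22 and 3.70, a fall of -1.68 (SE 0.26, edgeR adjusted p = 5.25e-07). Contacts 80 kb lower (-1.07, SE 0.24, edgeR adjusted p = 0.000373) and at Oacyl, 110 kb higher (-1.07, SE 0.25, edgeR adjusted p = 0.000539), also fell, but neither was called without MEF replicate 2 (log2 changes -0.94 and -0.93).

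The rule for named contacts also took 2 falls outside Zfp532. Zfp948 with the bin of 9330136K24Rik measured 11.3 and 13.3 CPM in MEF and 5.03 and 5.90 in ES, a change of -1.32 (SE 0.23, edgeR adjusted p = 7.92e-06). Zfp651 with its lower neighbour measured 7.96 and 9.79 against 5.31 and 6.56, a change of -0.77 (SE 0.21, edgeR adjusted p = 0.00381), which was not called without MEF replicate 2 (-0.65).

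The contact of the family with the highest CPM in the ES H3K27ac list could not be tested, because the MEF list lacks it. It joins Zfp13 to the adjacent bin of Zscan10 (chr17:23590001-23600000 and 23600001-23610000), an ES cell transcription factor gene of the SCAN zinc finger type. It measured 56.5 and 52.6 CPM in ES, 60.5, 76.9 and 61.1 in TKO at 0 h, and 60.4, 59.9 and 58.9 at 24 h. The ES Hi-C list also holds it (signal 50.6 and 45.3), and the MEF Hi-C list does not. Zfp213 in the same cluster contacted the Zscan10 bin over 40 kb at 6.63 and 3.04 CPM in MEF and at 20 and 22.9 in ES. Since CPM is scaled within a chromosome, its ranking across chromosomes need not follow counts. In ES the Zfp553 contact with its adjacent lower bin had 368 and 357 counts. The Zfp57 contact 30 kb lower, higher in CPM, had 280 and 277.

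**Figure D3:**
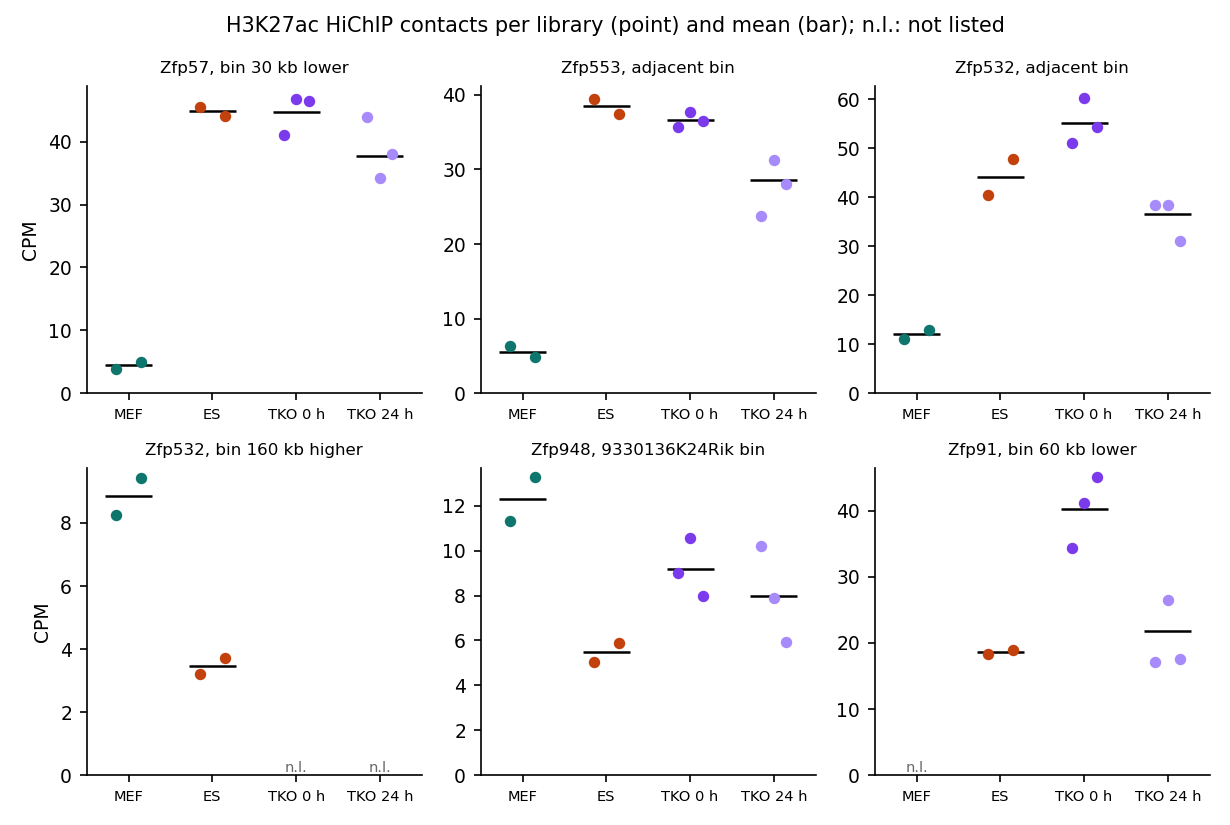
H3K27ac HiChIP strength in CPM (vertical axes, each from 0) of 6 contacts in MEF, ES and TKO cells at 0 and 24 h, with points for libraries and bars for means in which libraries agreeing within sampling noise count once. The Zfp57 and Zfp553 contacts lie below 7 CPM in MEF and above 23 CPM in the other groups, and the distant Zfp532 contact is listed in MEF and ES alone.

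Promoter sequences of the genes on which these contacts centre are shown for reference, as 250 bases before to 50 bases after the RefSeq start (GRCm38.p6, 5′ to 3′ on the gene's strand). The promoters of Zfp296 (chr7:19577037-19577336, plus strand), Zfp553 (chr7:127232811-127233110, plus strand), Zfp57 (chr17:37000913-37001212, plus strand, the lowest of its 3 listed starts) and Zfp13 (chr17:23599438-23599737, minus strand) are those of the gene with most ES contacts and of contacts described above. None held any of the 4 motifs searched.
Zfp296: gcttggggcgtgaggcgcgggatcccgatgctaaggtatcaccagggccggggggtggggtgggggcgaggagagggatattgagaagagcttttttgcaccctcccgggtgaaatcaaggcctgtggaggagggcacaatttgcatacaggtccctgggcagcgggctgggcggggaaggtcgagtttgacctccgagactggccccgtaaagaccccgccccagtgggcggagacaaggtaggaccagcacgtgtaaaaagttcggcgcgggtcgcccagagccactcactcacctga
Zfp553: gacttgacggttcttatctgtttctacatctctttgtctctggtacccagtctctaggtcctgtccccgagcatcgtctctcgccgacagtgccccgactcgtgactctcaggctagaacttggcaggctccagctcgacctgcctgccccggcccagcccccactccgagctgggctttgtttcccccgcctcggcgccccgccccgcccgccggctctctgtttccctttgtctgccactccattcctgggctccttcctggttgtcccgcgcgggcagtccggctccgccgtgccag
Zfp57: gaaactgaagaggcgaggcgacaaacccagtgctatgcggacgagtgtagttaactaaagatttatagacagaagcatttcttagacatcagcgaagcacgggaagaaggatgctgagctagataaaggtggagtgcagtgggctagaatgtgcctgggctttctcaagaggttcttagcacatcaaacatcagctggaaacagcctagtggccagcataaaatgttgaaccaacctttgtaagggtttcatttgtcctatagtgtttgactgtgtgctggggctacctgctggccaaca
Zfp13: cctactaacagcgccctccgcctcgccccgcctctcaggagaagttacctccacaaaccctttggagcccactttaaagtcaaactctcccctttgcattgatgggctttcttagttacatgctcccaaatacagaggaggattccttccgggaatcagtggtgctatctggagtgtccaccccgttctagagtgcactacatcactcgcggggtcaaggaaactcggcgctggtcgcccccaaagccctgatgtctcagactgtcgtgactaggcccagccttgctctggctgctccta

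Base composition differed among these promoters. G and C made up 63.3% of the Zfp296 promoter, 65.0% of that of Zfp553, 55.7% of that of Zfp13 and 47.0% of that of Zfp57. RefSeq promoters with a start in the gene's own bin were matched for 177 of the 225 genes, 214 promoters, and any start for 187 genes, 233 promoters. Over these 233 the median was 55.7%, with an observed over expected CpG ratio of 0.684, against 59.7% and 0.714 for promoters of named genes and 52.7% and 0.384 for all mouse promoters in the table. Promoters of clustered genes had lower medians (54.3% and 0.630) than those outside clusters (59.5% and 0.733).

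The 4 motifs were short exact sequences searched on both strands, and each was counted whether or not it overlapped another. GCGCATGCG, part of the NRF1 site, occurred in 14 promoters (6.01%), against 3.28% of promoters of named genes and 1.75% of all promoters. GGGTGTGG, a KLF site, occurred in 12 (5.15%, 3.96% and 3.56%), AAGATGGCG, a YY1 site, in 8 (3.43%, 2.69% and 1.40%), and ACTACAATT, part of the ZNF143 site, in 6 (2.58%, 0.641% and 0.393%). Examples are Zfp213 (chr17:23564177-23564476, minus strand), with an NRF1 match on both strands, Zfp784 (chr7:5038397-5038696, minus strand), with a KLF match, and Zfp128 (chr7:12880928-12881227, plus strand), with a ZNF143 match on the other strand. Capitals mark the matches.
Zfp213: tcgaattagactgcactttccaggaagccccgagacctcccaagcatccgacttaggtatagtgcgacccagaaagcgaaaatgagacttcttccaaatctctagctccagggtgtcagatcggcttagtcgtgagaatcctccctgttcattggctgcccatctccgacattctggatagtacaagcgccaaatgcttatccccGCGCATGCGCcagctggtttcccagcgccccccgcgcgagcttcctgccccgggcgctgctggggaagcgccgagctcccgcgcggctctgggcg
Zfp784: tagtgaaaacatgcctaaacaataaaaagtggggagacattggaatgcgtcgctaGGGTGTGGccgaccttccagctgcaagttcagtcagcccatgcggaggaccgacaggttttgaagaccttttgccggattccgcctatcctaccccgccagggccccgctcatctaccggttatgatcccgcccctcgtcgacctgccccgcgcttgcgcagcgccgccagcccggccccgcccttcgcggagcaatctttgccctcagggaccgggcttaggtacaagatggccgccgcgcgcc
Zfp128: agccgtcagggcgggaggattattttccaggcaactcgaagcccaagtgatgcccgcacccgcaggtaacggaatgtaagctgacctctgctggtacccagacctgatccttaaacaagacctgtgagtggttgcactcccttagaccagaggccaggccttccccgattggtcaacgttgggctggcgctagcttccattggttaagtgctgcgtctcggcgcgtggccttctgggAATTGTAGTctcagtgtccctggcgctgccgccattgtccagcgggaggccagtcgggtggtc

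A match is a description of the letters and not evidence of binding. The 11 genes with a KLF match and a start in their bin had a mean of 0.909 KLF4 interactions in ES, against 1.32 for the 166 without. The 6 genes with a ZNF143 match (Zfp1, Zfp58, Zfp128, Zfp180, Zfp692 and Zfp933) had a mean of 2.00 H3K27ac interactions in ES, against 3.98 for the 171 without.

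During 24 h of doxycycline in TKO cells, 135 of 225 genes (60%) came to have fewer listed H3K27ac interactions and 40 (17.8%) more, against 48.4% and 23.8% of named genes. Of the family, 24 genes had contacts in the 0 h list alone and 8 in the 24 h list alone. For these the direction was fixed by the rule that chose the genes, which the named genes share. The sum over genes went from 1113 to 905. Of genes in clusters, 65.1% had fewer and 15.9% more, and of genes outside, 53.5% and 20.2%. In cluster 7, 13 of 15 genes had fewer, in clusters 11 and 16 every gene did, and in cluster 14 the genes were divided, 6 with more and 7 with fewer. When both lists were reduced to equal length, 46.7% of the family had fewer (36.6% of named genes).

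Zfp296 had 22 interactions at 0 h and 15 at 24 h, Zfp960 had 9 and 3, Zfp667 had 9 and 3, and Zfp260 had 16 and 11. The largest gains were at Zfp523 (5 and 8), Zfp595 (1 and 4), Zfp54 (0 and 3) and Zfp493 (2 and 4). Zfp54 was counted through the 24 h list alone, so it could only come out higher. Of the 7 pluripotency-linked genes 6 had fewer and 1 was equal, and all 5 KRAB genes with known targets had fewer (46 against 58 in sum). Of these 5, Zfp708 (1 and 0) was counted through the 0 h list alone and could only come out lower. Zfp809 had 9 and 5 and Zfp819 had 9 and 6. Of the 19 corepressor genes, 12 had fewer and 4 more, and the fall of Suv39h2 (1 and 0) was fixed in the same way. Among named genes 48.4% had fewer and 23.8% more.

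The submitters marked each TKO bin for an H3K27ac peak at 0 and 24 h. Peaks were present at both times in 189 of 219 zinc finger bins (86.3%, 95% Wilson interval 81.1 to 90.2), against 71.6% of all gene bins, and at neither time in 21 (9.59%, against 21.6%). At 0 h alone a peak was marked in 6 bins and at 24 h alone in 3. Among the 195 genes with a peak at both times, 60.5% had fewer interactions at 24 h and 18.5% more, against 50.6% and 22.4% of named genes with such bins. Among the 21 genes with a peak at neither time, 14 (66.7%) had fewer and none more, against 37.3% and 28.1% of named genes with such bins.

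Strength changed at few of these contacts. Of 706 tested interactions of 182 genes, 2 rose and 13 fell by edgeR's test (2.8% called among all 67723 interactions, 0.601% higher and 2.2% lower), and the median log2 change was -0.02 in the family and 0.01 overall. With contact totals as the scale the family's calls were 1 higher and 41 lower. DESeq2 called 2. Without TKO 0 h replicate 1 or 3 edgeR called 9 or 8, and without 24 h replicate 1 or 3 it called 8 or 6.

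Zfp91, which encodes a zinc finger ubiquitin ligase, had the fall with the smallest p. Its contact with a bin 60 kb lower (chr19:12730001-12740000) measured 34.4, 41.1 and 45.1 CPM at 0 h and 17.1, 26.4 and 17.6 at 24 h, a change of -0.82 (SE 0.15, edgeR adjusted p = 1.47e-05). All 0 h values lay above all 24 h values. In ES the contact measured 18.4 and 19.0 CPM, and the MEF list lacks it.

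The adjacent-bin contact of Zfp532 that was higher in ES than in MEF fell here from 51.0, 60.2 and 54.4 CPM to 38.5, 38.3 and 31.0 (-0.51, SE 0.11, edgeR adjusted p = 0.000844). Zfp960 with its lower neighbour measured 16.5, 15.6 and 17.9 CPM, then 9.42, 8.96 and 8.60 (-0.79, SE 0.19, edgeR adjusted p = 0.00333). Neither range overlapped. Zfp961 in cluster 11 (-0.67, SE 0.18, edgeR adjusted p = 0.0116) and Zfp661 (-0.47, SE 0.13, edgeR adjusted p = 0.014) also fell, but the Zfp961 call was lost without 0 h replicate 3 or 24 h replicate 2 (-0.48 and -0.63) and the Zfp661 call without 0 h replicate 1 or 3 or 24 h replicate 2 (-0.40, -0.45 and -0.38).

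The rises were at the bin assigned to Zfp866 and Atp13a1 (chr8:69790001-69800000) with that of Gmip (12.9, 12.6 and 14.9 CPM, then 18.9, 21.9 and 13.4, log2 change 0.57, SE 0.15, edgeR adjusted p = 0.00861), whose ranges overlap, and at Zfp687. The RefSeq gene Zfp866 (minus strand) starts at 69774911, below that bin. The bins of Zfp91, Zfp661 and Zfp687 also hold Lpxn, Mrps5 and 4930481B07Rik. Zfp687, whose human counterpart shares the ZMYND8 complex with that of Zfp532, measured 7.33, 8.96 and 8.68 CPM, then 11.3, 12.1 and 10.6 (0.56, SE 0.17, edgeR adjusted p = 0.0357). The Zfp687 call was lost without any one of the 6 libraries, at log2 changes from 0.48 to 0.61, and the Zfp866 call without 0 h replicate 1 or 2 or 24 h replicate 2 (0.56, 0.52 and 0.38).

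KLF4 contacts of the family were fewest at day 6, as were those of named genes. The summed number over genes was 193 at day 3, 25 at day 6 and 285 in ES. From day 3 to ES, 36.4% of the genes had more interactions and 15.1% fewer, against 39.2% and 16.3% of named genes. From day 6 to ES, 50.7% had more and 0.444% fewer (54.9% and 1.52%), and from day 3 to day 6, 2.67% had more and 37.8% fewer (2.91% and 36.8%). The 3 comparisons share libraries. The day 6 list is the shortest, and with both lists reduced to equal length 9.33% of the family had more in ES than at day 6.

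Most KLF4 interactions at day 3 were at Zfp532 (9 interactions, 2 in ES), Zfp296 (8, 5 in ES) and Zfp148 (6, 0 in ES), followed by Zfp219, Zfp382, Zfp410 and Zfp57 with 5 each (5, 3, 5 and 11 in ES). In ES the 4 genes with most were Zfp57 (11, 5 at day 3), Zfp13 (10, 1 at day 3), Zfp213 (10, 1 at day 3) and Zfp819 (8, 0 at day 3). At day 6 Zfp13 and Zfp229 had 2 each. Cluster 17, which contains Zfp13, Zfp213 and Zfp229, held 6, 5 and 25 interactions at day 3, day 6 and in ES, and cluster 7 held 15, 2 and 14. Of the ES KLF4 interactions of the family, 88.2% (231 of 262) were also in the ES H3K27ac list, against 80.4% of those touching any named gene and 74.0% of all. Of those of day 3, 86.0% were in the ES H3K27ac list (70.3% for named genes, 46.1% of all) and 52.6% in the shorter MEF list (57.8% and 46.0%).

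**Figure D4:**
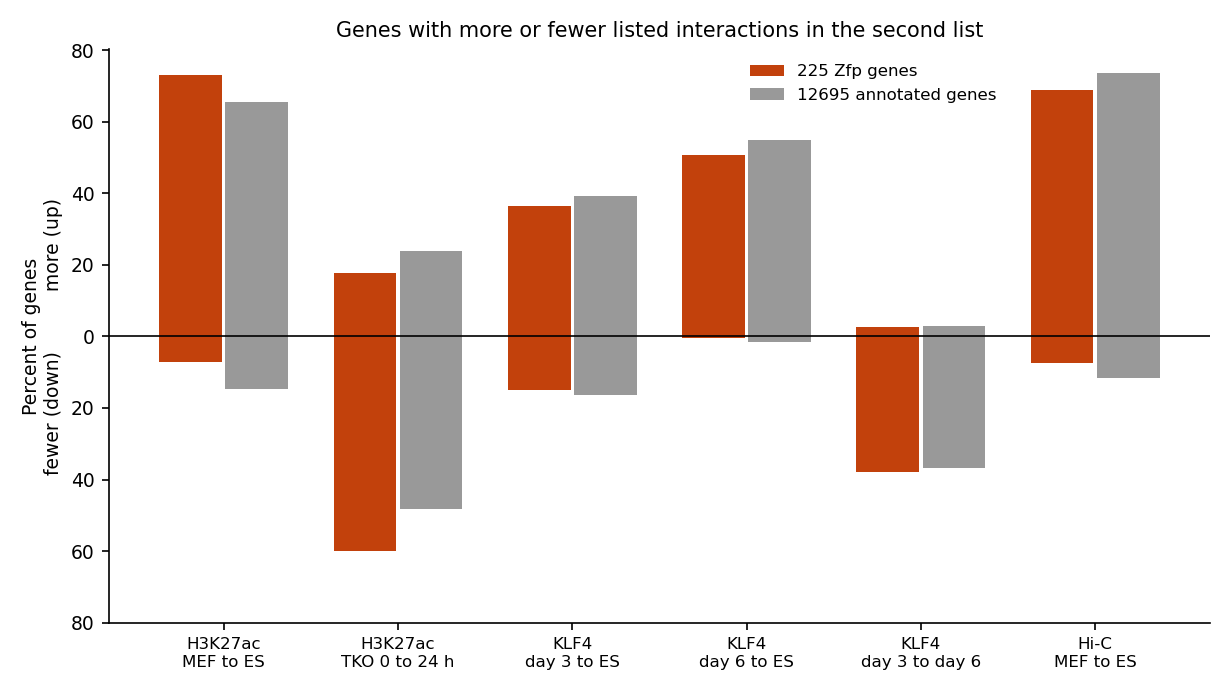
Percent of zinc finger genes (orange) and of all named genes (grey) with more (upward bars) or fewer (downward bars) listed interactions in the second list of each of 6 comparisons. The family stands at 72.9% more for H3K27ac from MEF to ES and at 60% fewer from TKO 0 h to 24 h, and the KLF4 bars lie within 5 percentage points of the background.

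From day 3 to ES, 93 shared KLF4 interactions were tested, and 5 rose and 2 fell (7.2% called among all 7387, 3.02% higher and 4.18% lower). DESeq2 called 0 of the 93, with 7 at an unadjusted p below 0.05. Leaving out day 3 replicate 1, 2 or 3 left 4, 2 or 2 edgeR calls, and leaving out ES replicate 4 left 3. The Zfp13 and Zscan10 contact measured 8.76, 8.82 and 9.63 CPM at day 3 and 17.4, 15.2, 16.1 and 17.0 in ES, a rise of 0.87 (SE 0.20, edgeR adjusted p = 0.00197) that was not called without day 3 replicate 2 (0.79). Zfp710 with its lower neighbour measured 8.99, 6.05 and 4.40 against 9.89, 9.01, 14.5 and 10.8, a rise of 0.97 (SE 0.21, edgeR adjusted p = 0.000513), not called without day 3 replicate 3 (0.79). These ranges lie close together without overlap for Zfp710 and apart for Zfp13.

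Zfp64 with its higher neighbour rose from 5.31, 4.53 and 3.42 CPM to 7.11, 7.05, 6.63 and 8.13 (0.73, SE 0.20, edgeR adjusted p = 0.0123), a call lost without day 3 replicate 2 or 3 or ES replicate 4 (0.74, 0.62 and 0.62). The contact between Zfp74 and Zfp568, both in cluster 7, went the other way, from 7.86, 7.06 and 5.4 CPM to 3.22, 3.24, 3.01 and 3.93 (-0.88, SE 0.24, edgeR adjusted p = 0.01), and was not called without day 3 replicate 1 or 2 (-0.85 and -0.84). Its H3K27ac values were 4.21 and 5.20 CPM in MEF and 13.6 and 13.3 in ES. The other calls, Zfp710 with its higher neighbour (0.73), a second Zfp90 contact (0.66) and Zfp428 (-0.76), had overlapping ranges and were lost in several such repeats.

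Day 6 contacts were tested on 15 interactions shared with day 3 and 19 shared with ES. From day 3 to day 6, 2 fell (5.33% called among all 2571, 1.32% higher and 4.01% lower), and from day 6 to ES 1 rose (3.37% called among all 2076, 2.6% higher and 0.771% lower). The larger fall was between 2 adjacent bins, the one assigned to Zfp36 (chr7:28380001-28390000) and the one assigned to Plekhg2 and Gm44710 (chr7:28370001-28380000). The RefSeq gene Zfp36 (chr7:28376784-28379228, minus strand) lies wholly in the latter, so the assigned bin is the one upstream of its start. The contact measured 15, 18 and 13 CPM at day 3, 3.83, 5.08, 4.07 and 4.08 at day 6, and 7.74, 11.2, 15.3 and 12.9 in ES. The fall to day 6 was -1.12 (SE 0.18, edgeR adjusted p = 1.17e-05). The rise from day 6 to ES was 0.82 (SE 0.22, edgeR adjusted p = 0.0211), but it was not called without any one of the 4 day 6 libraries or without ES replicate 3 or 4 (0.70 to 0.92).

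In the H3K27ac lists the contact of the bins assigned to Zfp36 and Plekhg2 measured 23.4 and 29.0 CPM in MEF, the highest mean of the family there, and 27.2 and 28.1 in ES, ranges that overlap. Zfp184 with a bin 20 kb higher (chr13:21960001-21970000) measured 16.4, 11.5 and 10.2 CPM at day 3, 6.65, 3.68, 5.23 and 4.34 at day 6, and 9.59, 6.63, 10.5 and 9.03 in ES. The fall to day 6 was -0.76 (SE 0.19, edgeR adjusted p = 0.00722), lost without day 6 replicate 2 (-0.63). Libraries of day 6 differed by no more than sampling noise. They were kept as 4 replicates, since libraries were joined only where others of the group differed, so p-values with day 6 may rest on technical copies. With contact totals as the scale the median of all interactions moved from 0.02 to -0.58 between day 3 and day 6 and the family's falls to 9.

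**Figure D5:**
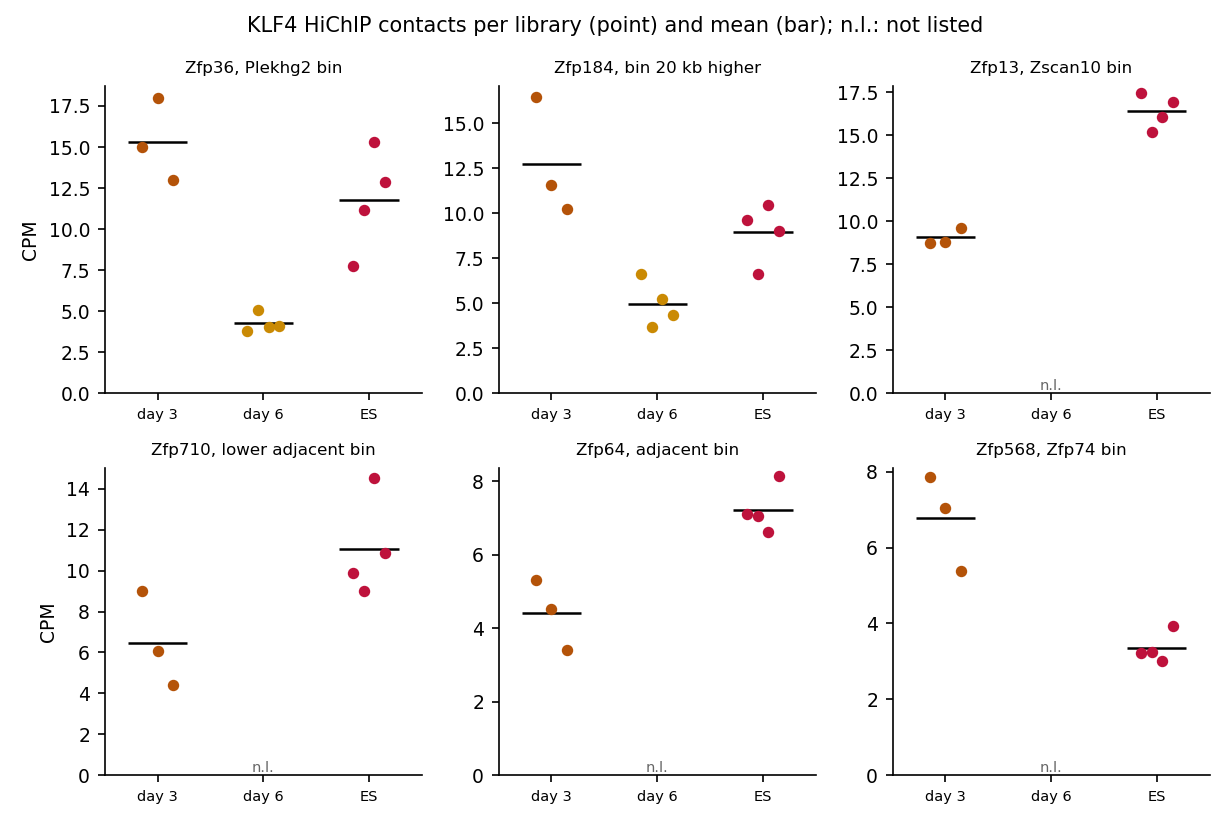
KLF4 HiChIP strength in CPM (vertical axes, each from 0) of 6 contacts at day 3, day 6 and in ES, with points for libraries and bars for means in which libraries agreeing within sampling noise count once. The contacts of the bins assigned to Zfp36 and Zfp184 are below 7 CPM in every day 6 library, and the other 4 contacts are not listed at day 6.

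Hi-C, which does not select for a mark, listed more contacts of the family in ES. The whole ES Hi-C list is also longer, 318622 interactions against 228083 in MEF, and numbers per gene move with list length. From MEF to ES 155 genes (68.9%) had more interactions and 17 (7.56%) fewer, against 73.5% and 11.7% of named genes, and the sum went from 496 to 1112. Zfp335 had 0 in MEF and 11 in ES, Zfp639 had 0 and 11, Zfp358 had 3 and 14 and Zfp526 had 6 and 16. Zfp957 had 10 and 5, Zfp652 had 4 and 1, Zfp286 had 5 and 3 and Zfp827 had 2 and 0. Cluster 2 held 25 and 58 interactions, cluster 3 held 8 and 40, and cluster 11 held 0 in both. The longest Hi-C contact of the family ran 450 kb between Zfp185 and Trex2 on chromosome X in ES (signal 16.7 and 23.2).

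No Hi-C contact of the family was called by edgeR's test. Of 355 shared interactions 348 could be tested, 0 were called (0.0322% called among all 124204, 0.0209% higher and 0.0113% lower) and 25 had an unadjusted p below 0.05, with 0.53 as the smallest adjusted p. DESeq2 called 0, with 0 at an unadjusted p below 0.05. The contact of Zfp446 with a bin 30 kb higher, for example, had signals of 31.8 and 23.8 in MEF and 44.9 and 54.2 in ES (log2 0.80, SE 0.28, edgeR adjusted p = 0.53), ranges that do not overlap.

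Most zinc finger bins lay inside the submitters' Hi-C domains, 211 of 219 (96.3%) in ES and 207 (94.5%) in MEF, against 97.3% and 94.3% of all gene bins. Among bins inside a domain, those within 40 kb of its edge were 9.00% for the family in ES (13.3% for gene bins). In MEF they were 8.70% (17.5%). The median domain was 1320 kb around zinc finger bins and 1000 kb around gene bins in ES, and 1400 and 960 kb in MEF.

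Over interactions common to both lists, the family took 1.14% ± 0.010 of counts in MEF and 1.44% ± 0.0068 in ES (SD, n = 2 each, exact two-sided permutation p = 0.333, the smallest this design allows). In TKO cells the share was 1.10% ± 0.0080 at 0 h (n = 3) and 1.07% ± 0.010 at 24 h (n = 2 after joining libraries, exact permutation p = 0.1, the smallest possible). For KLF4 it was 1.23% ± 0.032 at day 3 (n = 3) and 1.34% ± 0.038 in ES (n = 2, exact permutation p = 0.1, the smallest possible). From day 6 to ES it was 0.990% ± 0.016 (n = 4) and 1.04% ± 0.061 (n = 2, exact permutation p = 0.133), and from day 3 to day 6 0.629% ± 0.013 (n = 3) and 0.604% ± 0.014 (n = 4, exact permutation p = 0.0857). In Hi-C it was 0.269% ± 0.0067 in MEF and 0.287% ± 0.00010 in ES (n = 2 each, exact permutation p = 0.333, the smallest possible). After adjustment over the 6 comparisons, p lay between 0.2 and 0.333. Over all listed interactions, where the share also moves with how much was listed, it was 0.438% in MEF and 1.18% in ES for H3K27ac, 1.10% and 1.02% in TKO at 0 and 24 h, 0.734%, 0.633% and 1.13% for KLF4 at day 3, day 6 and in ES, and 0.205% and 0.344% in Hi-C, with adjusted p between 0.15 and 0.333. Shares of counts were not taken for named genes, so these values do not show whether the family differs from them. Listed H3K27ac interactions touching any named gene also became more frequent, from 16566 of 60870 in MEF to 36884 of 75466 in ES.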

How the data were processed

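Interaction lists of 21 HiChIP and 4 Hi-C libraries (25 in all, 9 groups) were analysed as deposited. Per the submitters' processing notes, Bowtie2 2.2.3 and mm10 were used; the contact caller is not given in the sources used here. Per the file headers, the deposited lists hold a raw count and a CPM per library for pairs of 10 kb bins, with 1 p-value and FDR per interaction, and the deposited domain lists hold a score that was not used. In HiChIP the authors' CPM is the count scaled to the contact total of the chromosome. The authors' Hi-C values bear the same name but are a signal on another scale and are called signal here. The values show that the authors kept HiChIP interactions above 3 CPM (replicates 3 and 4 of the KLF4 lists go below) and Hi-C interactions at 15 or more.

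Distinct bin pairs touching a member's bins were counted per gene and list. Counts of shared interactions were tested with edgeR 4.0.16 (R 4.3.3, filterByExpr, TMM on contact totals, quasi-likelihood test) over the whole table, and DESeq2 1.42.0 was an alternative. The step was tested on simulated data. Libraries whose counts agreed within sampling noise by a chi-square test, in a group where others differed, were joined and counted as 1 replicate: TKO 24 h replicates 1 and 3, ES KLF4 replicates 1 and 2, and ES KLF4 replicates 3 and 4. Tables were handled with Python 3.11.15, pandas 2.3.3, numpy 2.4.6 and scipy 1.17.1.

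Named are the genes with most interactions or the largest gains and losses per comparison, the role lists, up to 3 genes per cluster, and the contacts with the 5 smallest adjusted p in each direction. Of the role lists Zfp462, Zfp445, Zfp932, Zfp423, Zfp521, Zfp469, Zfp503 and Zfp703 were not found. Members and lists were chosen with earlier results of these data known. Alternatives were other scalings and tools, distance and bin filters, list lengths, a replicate block and leaving out libraries.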

Additional observations from a re-analysis of the deposited data

How the results depend on the processing

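Without TMM, on contact totals, edgeR called 42 TKO contacts of the family (5.95%, against 4.73% of all), 13 from day 6 to ES (68.4% and 55.8%) and 9 from day 3 to day 6 (60% and 61.8%), and the median change of all contacts moved from 0.01 to -0.10 in TKO and from -0.01 to 0.58 from day 6 to ES. All MEF and ES calls moved from 3152 higher and 2569 lower to 4831 and 1426. DESeq2 called 34 contacts for MEF and ES, 2 in TKO, 0 from day 3 to ES, 0 from day 6 to ES and 1 from day 3 to day 6. With anchors at least 20 kb apart the calls were 6 in TKO, 3 from day 3 to ES, 0 from day 6 to ES and 1 from day 3 to day 6. Leaving out 1 library gave 47 to 62 calls for MEF and ES, 6 to 11 in TKO, 2 to 9 from day 3 to ES, 0 to 1 from day 6 to ES and 1 to 2 from day 3 to day 6. Same-numbered replicates did not deviate together (r from -0.058 to 0.035), and with the replicate number as a block and all libraries kept separate the calls were 74 for MEF and ES, 18 in TKO and 3 from day 3 to ES, where separate libraries without the block gave 72, 15 and 10. With TKO 0 h replicates 2 and 3 also joined, a choice made after seeing the data, 14 were called.

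The share of genes with more interactions was 63.1% for MEF and ES in lists of equal length (58.4% of named genes), 65.8% with 1 count cutoff on all chromosomes (61.3%) and 45.3% against the same chromosome. In TKO 46.7% had fewer at equal length and 51.6% with 1 count cutoff. From day 3 to ES 27.6% had more with anchors at least 20 kb apart. From day 6 to ES the values were 9.33% at equal length, 40% at 20 kb or more, and 32.0% against the same chromosome, where the direction turned (42.2% below). From day 3 to day 6 they were 28.9% fewer at 20 kb or more, and at equal length the direction turned, with 5.78% fewer and 7.56% more. Hi-C gave 60.4% at equal length and 50.7% against the same chromosome. The share of counts from day 3 to day 6 fell by 0.101 percentage points over all listed interactions (exact permutation p = 0.0286, adjusted 0.15). Clusters numbered 21 with a gap of 500 kb and 16 with 2 Mb.

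Contacts that turned direction had not been called. On contact totals from day 6 to ES these were Zfp318 (0.000912), Zfp219 (0.21), Zfp597 (0.13), Zfp592 (0.35) and Zfp28 (0.46), and from day 3 to day 6 Zfp318 (-0.030), Zfp148 (-0.30), Zfp219 (-0.39), Zfp865 with Zfp784 (-0.40) and Zfp90 (-0.43). Leaving out 1 library gave -0.34 to 0.13 for Zfp28 (day 6 to ES), -0.31 to 0.0094 for Zfp213 with Zscan10 and -0.070 to 0.0868 for Zfp541 (day 3 to day 6, 0.0092 with DESeq2), and -0.74 to 0.0445 for Zfp865 with Zfp784 in Hi-C. The values above 0 came without day 6 replicate 3 for Zfp28 and Zfp213, without day 3 replicate 3 or day 6 replicate 2 or 3 for Zfp541, and without MEF replicate 1 in Hi-C. The causes were not tested. Where a contact is not listed, its strength is not known below the cutoff.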

Other observations

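Shared contacts between lists were counted for the family and, as the background, for interactions touching any named gene, since all named genes had to have a contact in a TKO list and part of any overlap is set by that choice. Of the family's 290 MEF H3K27ac interactions, 191 (65.9%) were present in all 4 H3K27ac lists, 2 of which are the TKO lists, against 51.2% of the 16566 MEF interactions of named genes. The family's MEF and ES interactions shared 224 bin pairs, 77.2% of the MEF and 26.8% of the ES interactions, where named genes shared 62.0% and 27.8%. For KLF4, day 3 and ES shared 93 bin pairs, 54.4% and 35.5% of the family's interactions, against 48.3% and 33.5% for named genes. In Hi-C the shared part was 76.3% of the MEF and 33.8% of the ES interactions of the family, against 70.8% and 39.0%. These shares were not tested.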
